A study of Homo sapiens with 9 samples.

Results

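Keratin genes were examined in TE13 cells, a human esophageal squamous cell carcinoma (ESCC) line, after knockdown of the long noncoding RNA PARylator (LINC00885). They were taken as every row of the gene table whose symbol reads KRT, a number and at most a final A, B or C, which left out pseudogenes and keratin-associated proteins. This gave 55 of 60605 genes, 29 of type I and 26 of type II. Poly(A)+ RNA was sequenced in 3 libraries for each of 3 conditions, namely control siRNA, siRNA.1 and siRNA.2, the latter both directed against PARylator. All conditions used the same TE13 line, with no genetic change named. For these libraries, the time after transfection and the dose were not given in the sources used here. The series description calls the libraries biological replicates and the paper calls them experimental repeats. Neither says whether they were separate cultures, so p-values measure the spread between these libraries.

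Each library held 15337917 to 22559998 counted reads, and replicates within a condition differed by more than sampling noise. The targeted transcript LINC00885 was near the limit of detection, with 6, 7 and 12 counts in the control libraries, 4, 5 and 2 with siRNA.1, and 2, 0 and 4 with siRNA.2. On the log2 scale this was a change of -1.21 under siRNA.1 (adjusted p = 0.376, edgeR) and -2.33 under siRNA.2 (adjusted p = 0.0659), so neither passed the 0.05 threshold. The squamous label was checked against 9 markers other than keratins, all of which were measured. With either siRNA, 2 of these 9 rose and 7 fell, and their summed level was 455.5 to 471.3 FPKM in control libraries, 346.1 to 353.2 under siRNA.1 and 338.9 to 344.2 under siRNA.2. Of 10 columnar markers, 3 were tested, of which 2 rose with siRNA.1, 1 rose with siRNA.2 and none fell. In control cells GATA6 averaged 7.78 FPKM, GATA4 2.61 and MUC13 0.23. GATA4 rose with siRNA.1, MUC13 rose with both siRNAs and GATA6 was called with neither. The intestinal markers CDX1, CDX2, VIL1, CDH17 and TFF3 had at most 3 counts in any library, and HNF4A and LGALS4 at most 7. The summed columnar level was 10.29 to 11.02 FPKM in control libraries, 13.8 to 14.3 under siRNA.1 and 11.3 to 13.1 under siRNA.2. All 4 general epithelial markers were measured, with 1 higher and 1 lower with each siRNA. The fibroblast markers, of which 2 of 7 were tested, summed to at most 2.49 FPKM in any library. For blood cells, 5 of 7 markers were tested and 4 rose with each siRNA, from a sum of 0.67 to 1.54 FPKM in control libraries to 4.95 to 5.51 under siRNA.1 and 5.07 to 6.36 under siRNA.2, while the lymphocyte markers CD3E and CD79A stayed at 4 counts or fewer. Beside these marker calls, 30.3% of all tested genes were called with siRNA.1 and 30.9% with siRNA.2. For genes averaging 1 FPKM or more the shares were 44.8% and 45.9%. The part of the marker shifts in the keratin results was not tested. In bulk RNA, fewer cells of a type and less RNA per cell cannot be told apart.

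Keratins are the intermediate filament proteins of epithelial cells. A filament is built from pairs of a type I (acidic) and a type II (basic) keratin, and the pair that a cell makes marks its layer and kind. The basal layer of stratified epithelium makes KRT5 with KRT14, and KRT15 is a further type I keratin of basal cells. Suprabasal cells switch to other pairs, KRT1 with KRT10 in the epidermis and KRT4 with KRT13 in the esophageal lining. Wounded, inflamed or hyperproliferating epithelium makes the stress keratins KRT6, KRT16 and KRT17, and simple (single-layered) epithelium makes KRT8 with KRT18, often with KRT7 and KRT19. Squamous carcinoma lines frequently mix these programmes. Hair keratins build the hair shaft, and a related group builds the root sheath around it.

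All 26 type II genes lay on chromosome 12, together with the type I gene KRT18, and the other 28 type I genes lay on chromosome 17 (GRCh38, coordinates of the gene table). The tested genes on chromosome 12 ran from KRT80, which starts at 52168996, to KRT18, which ends at 52952906. Those on chromosome 17 ran from KRT10, which starts at 40818117, to KRT17, which ends at 41624842. Of the 55 genes, 22 averaged 0.1 FPKM or more over the 9 libraries and were tested, and 18 of them averaged 1 FPKM or more. FPKM is the number of reads counted for a gene, scaled to its exonic length and to the read total of the library. The remaining 33 were not tested, and the highest count of any of them in a library was 8. In 15 genes, no read was counted in any library.

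Promoter sequence is shown for 3 of the genes with the largest changes that the RefSeq promoter table holds: KRT5, which fell with both siRNAs, and KRT34 and KRT9, which rose with both. Each runs 5′ to 3′ from 250 bases before to 50 bases after the annotated start, on GRCh38.p14, and capitals mark a motif match.
KRT5 (chr12:52520345-52520644, minus strand): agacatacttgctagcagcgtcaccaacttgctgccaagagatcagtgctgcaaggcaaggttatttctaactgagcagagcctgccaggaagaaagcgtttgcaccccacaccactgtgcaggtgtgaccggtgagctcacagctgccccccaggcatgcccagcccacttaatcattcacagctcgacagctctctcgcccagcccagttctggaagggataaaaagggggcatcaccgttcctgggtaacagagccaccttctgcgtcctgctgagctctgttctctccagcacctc
KRT34 (chr17:41382257-41382556, minus strand): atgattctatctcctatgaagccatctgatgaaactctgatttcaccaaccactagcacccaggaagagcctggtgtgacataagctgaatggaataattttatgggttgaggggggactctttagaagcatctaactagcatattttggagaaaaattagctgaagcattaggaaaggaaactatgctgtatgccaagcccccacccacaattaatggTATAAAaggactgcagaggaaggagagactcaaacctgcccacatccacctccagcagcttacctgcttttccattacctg
KRT9 (chr17:41572010-41572309, minus strand): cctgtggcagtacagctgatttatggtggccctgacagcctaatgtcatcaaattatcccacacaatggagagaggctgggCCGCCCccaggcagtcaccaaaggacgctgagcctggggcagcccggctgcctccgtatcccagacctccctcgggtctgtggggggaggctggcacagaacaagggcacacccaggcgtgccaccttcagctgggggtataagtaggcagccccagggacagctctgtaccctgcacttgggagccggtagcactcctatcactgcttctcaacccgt
The capitals in KRT34 are TATAAA at position -31 from the start, and those in KRT9 are GGGCGG read on the opposite strand at position -169. Of the 22 tested keratin genes, 7 had a promoter in the table. TATAAA, the core of the TATA box, was found on either strand in 3 of these 7 (KRT10, KRT33A and KRT34) and in 11.5% of all 35116 promoters of that length. GGGCGG, the GC box bound by SP1, was found in KRT75 and KRT9 and in 45.0% of all promoters. The core of the interferon-stimulated response element was found in KRT10 and in 3.57% of all promoters. TGANTCA, the AP-1 motif (7.71% of all promoters), was not found in the 7. These letters are matches within the 300 bases shown, and nothing about binding was measured.

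Simple keratins made up most of the keratin RNA in control cells. KRT18 stood at 450, 459 and 443 FPKM in the control libraries, KRT7 at 439, 437 and 427, KRT19 at 301, 315 and 318, and KRT8 at 281, 293 and 281. Ranked by FPKM among all genes of the table, KRT18 was number 43, KRT7 number 45, KRT19 number 68 and KRT8 number 75 in control cells. The hair keratin KRT81 followed with a mean of 183.8 FPKM, then KRT17 with 160.8, KRT5 with 142.5, KRT6A with 78.7 and KRT80 with 58.9. The control libraries of neighbours in this order did not overlap. Below KRT80 the level dropped to 9.07 FPKM for KRT14 and 6.13 for KRT10. KRT15 (3.37) and KRT23 (3.33) could not be ordered, since their control libraries overlapped. KRT34 overlapped both KRT86 and KRT9, while KRT86 lay above KRT9 in every control library. The partners of 2 suprabasal genes were nearly absent, since KRT1 had a single read in all libraries together and KRT4 had none.

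**Figure D1:**
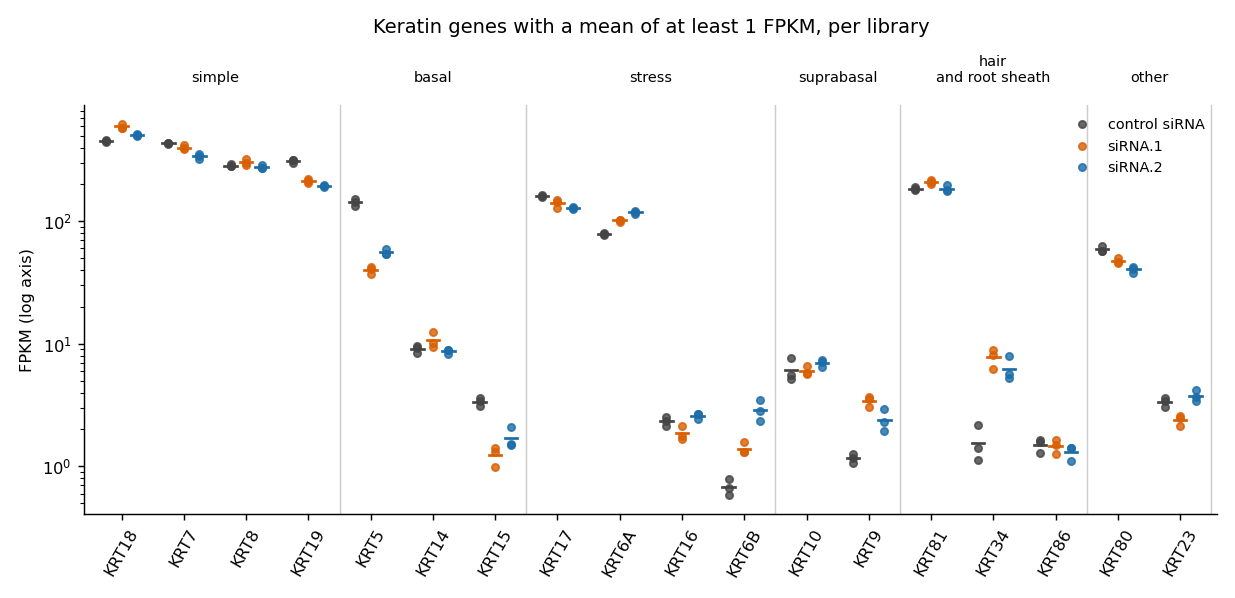
FPKM (log axis) of the 18 keratin genes averaging 1 FPKM or more, grouped by class, with a point for each of the 3 libraries of a condition and a bar at their mean. By mean, the 4 simple keratins sat highest in control cells, KRT5 and KRT15 dropped with both siRNAs, and KRT34, KRT9 and KRT6B lay higher with both.

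Of the 22 tested keratin genes, 7 rose and 8 fell with siRNA.1 against control siRNA, in a comparison in which 30.3% of all 21395 tested genes were called (15% higher and 15.2% lower). With siRNA.2, 6 rose and 7 fell, where 30.9% of all tested genes were called (15.8% higher and 15.1% lower). A call means an adjusted p under 0.05 in edgeR's quasi-likelihood test. Among all genes averaging 1 FPKM or more the background was 44.8% with siRNA.1 (22.1% higher and 22.8% lower), and the 18 keratins of that level gave 6 higher and 7 lower. The same background with siRNA.2 was 45.9% (23.4% higher and 22.5% lower), and the keratins gave 5 higher and 6 lower. The median log2 fold change of the 22 was -0.11 under siRNA.1 and -0.06 under siRNA.2, beside -0.0006 and 0.004 over all tested genes. The keratins thus moved in both directions at once.

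Both siRNA conditions were set against the same 3 control libraries, so their calls are not independent of each other. Called higher with both were KRT18, KRT34, KRT6A, KRT6B, KRT75 and KRT9, and called lower with both were KRT5, KRT7, KRT13, KRT15, KRT17, KRT19 and KRT80, while 21.2% of all tested genes were called in the same direction with both. No keratin gene was called in opposite directions. KRT23 and KRT81 were called with siRNA.1 and did not pass with siRNA.2, and 7 genes passed with neither (KRT8, KRT10, KRT14, KRT16, KRT33A, KRT78 and KRT86). A call with a log2 fold change of at least 1 in either direction was reached by 7 of the 22 with each siRNA. These were KRT5, KRT6B, KRT9, KRT13, KRT15, KRT34 and KRT75, beside 3.96% and 4.02% of all tested genes called at that size. KRT33A with siRNA.1 (-1.13, adjusted p = 0.468, edgeR) and KRT78 with siRNA.2 (-1.54, adjusted p = 0.14) reached that size without being called, so they are not counted. KRT75 is in these counts only because it was detected in the siRNA libraries, and KRT6B averages 1 FPKM or more only through the siRNA conditions, where it is high.

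**Figure D2:**
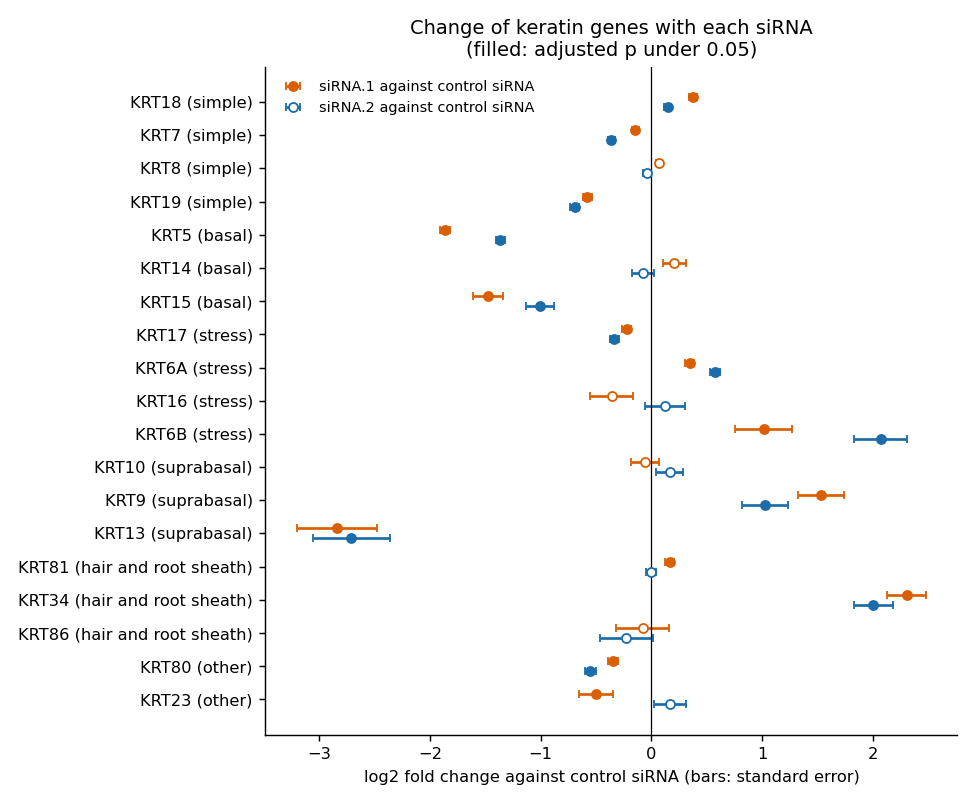
Log2 fold change against control siRNA for 19 keratin genes (the 18 averaging 1 FPKM or more, and KRT13), with standard errors as bars and filled points where edgeR's adjusted p was under 0.05. KRT5, KRT15 and KRT13 lay far to the left with both siRNAs and KRT34, KRT6B and KRT9 far to the right, while KRT8, KRT14, KRT10, KRT16 and KRT86 lay near 0 or had bars wide enough to miss the threshold.

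Among basal keratins, KRT5 and KRT15 fell with both siRNAs and the KRT5 partner KRT14 did not pass the test. KRT5 (ENSG00000186081, chromosome 12, 52514575 to 52520530, minus strand) stood at 134, 151 and 143 FPKM in the control libraries, 40.9, 42.2 and 36.8 with siRNA.1, and 59.1, 53.8 and 54.6 with siRNA.2. The 3 groups did not overlap. Its level was 3.63-fold lower with siRNA.1 (log2 fold change -1.86, standard error 0.0438, adjusted p at most 6.63e-258 with any library left out, edgeR) and 2.57-fold lower with siRNA.2 (-1.36, standard error 0.0425, adjusted p = 2.3e-221, edgeR). KRT15 (ENSG00000171346) followed the same course at a lower level, with 3.09, 3.44 and 3.59 FPKM in control libraries, 1.41, 1.31 and 0.99 with siRNA.1, and 2.10, 1.48 and 1.52 with siRNA.2. Every siRNA library lay below every control library for KRT15, with changes of -1.48 (standard error 0.133, adjusted p = 6.11e-27, edgeR) and -1.004 (0.125, adjusted p = 2.45e-14) in log2 units.

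KRT14, by contrast, stood at 8.47, 9.19 and 9.54 FPKM in control libraries, 12.4, 10.2 and 9.35 with siRNA.1, and 8.24, 8.91 and 8.87 with siRNA.2. These groups overlapped. The change was 0.21 in log2 units with siRNA.1 (95% interval 0.0034 to 0.41, adjusted p = 0.125, edgeR) and -0.08 with siRNA.2 (-0.28 to 0.13, adjusted p = 0.652), and without siRNA.1 replicate 3 the first rose to 0.29 and passed (adjusted p = 0.0424). KRT5 exceeded KRT14 by 14.96 to 16.4 times in FPKM in the control libraries, by 3.29 to 4.15 times with siRNA.1 and by 6.04 to 7.17 times with siRNA.2. The summed basal level was 154.9 ± 8.86 FPKM (SD, n = 3) in control cells, 51.9 ± 4.10 with siRNA.1 and 66.2 ± 2.83 with siRNA.2.

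The 4 tested simple keratins split, with 1 higher, 2 lower and 1 not called with each siRNA (class medians of the log2 fold change -0.04 and -0.20). KRT18 (ENSG00000111057, chromosome 12, 52948871 to 52952906, plus strand) was the member that rose, from 442.8 to 459.1 FPKM in the control libraries to 623, 581 and 582 with siRNA.1 and 494, 511 and 502 with siRNA.2. The 3 groups did not overlap for this gene. In log2 units it rose by 0.37 under siRNA.1 (standard error 0.0321, adjusted p = 1.28e-29, edgeR) and by 0.15 under siRNA.2 (0.0321, adjusted p = 4.05e-05). KRT8, its type II partner, stood at 323, 290.1 and 299.9 FPKM with siRNA.1 and 272, 289.6 and 274 with siRNA.2, and both groups overlapped with control. On the log2 scale the changes were 0.07 (95% interval 0.0074 to 0.13, adjusted p = 0.0835, edgeR) and -0.04 (-0.10 to 0.02, adjusted p = 0.321). The value with siRNA.1 passed the threshold without control replicate 2 (0.09, adjusted p = 0.0418), without siRNA.1 replicate 2 (0.11, adjusted p = 0.00342) and without siRNA.2 replicate 1 (0.07, adjusted p = 0.0441). The genes overlap by 1084 bases on opposite strands. The ratio of KRT8 to KRT18 was 0.625 to 0.638 in the control libraries, 0.499 to 0.518 under siRNA.1 and 0.546 to 0.567 under siRNA.2.

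KRT19 and KRT7 fell. KRT19, the smallest keratin and a type I member of simple epithelium and of some basal cells, went from 301, 315 and 318 FPKM to 220.1, 212 and 205 with siRNA.1 and 199, 194 and 189 with siRNA.2. The log2 fold changes of -0.58 (standard error 0.0384, adjusted p = 2.32e-49, edgeR) and -0.69 (0.0383, adjusted p = 9.03e-71) were the largest among simple keratins. KRT7, a type II keratin of gland and duct epithelium, stood at 416, 388 and 395 FPKM with siRNA.1 and 325, 353 and 342 with siRNA.2, all below the lowest control library at 427. This fall came to -0.15 under siRNA.1 (adjusted p = 4.06e-05, edgeR) and -0.36 under siRNA.2 (adjusted p = 4.7e-28) in log2 units. KRT7 overlaps its antisense gene KRT7-AS, which drew 4209 counts over all libraries against 249355 for KRT7. KRT20, an intestinal and urothelial keratin, had at most 3 counts in a library and was not tested.

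Stress keratins also split. With each siRNA, 2 of 4 tested members rose (KRT6A and KRT6B), KRT17 fell and KRT16 was not called, with class medians of 0.06 and 0.35 on the log2 scale. KRT6A (ENSG00000205420, chromosome 12, 52487176 to 52493257, minus strand), the more abundant KRT6 gene, stood at 79.6, 79.1 and 77.4 FPKM in the control libraries, 103, 103 and 99.5 with siRNA.1, and 122, 118 and 114 with siRNA.2. The 3 groups stood apart, control lowest and siRNA.2 highest. The rise was 0.34 log2 units under siRNA.1 (standard error 0.0437, adjusted p = 9.33e-14, edgeR) and 0.58 under siRNA.2 (0.0434, adjusted p = 3.97e-38). KRT6B, at 0.79, 0.67 and 0.58 FPKM in control libraries, reached 1.57, 1.30 and 1.32 with siRNA.1 and 3.49, 2.33 and 2.81 with siRNA.2, from 28, 24 and 24 counts in control libraries. Every library of a group lay above the group before it, with log2 fold changes of 1.01 (standard error 0.258, adjusted p = 0.000544, edgeR) and 2.07 (0.239, adjusted p = 1.34e-16). KRT6C had 0, 1 and 0 counts in control libraries, 1, 3 and 7 with siRNA.1 and 5, 7 and 3 with siRNA.2, too few to test.

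The KRT6 genes are near copies of each other. Of the 100-base stretches of their annotated transcripts, 13.6% of those of KRT6A, 24.4% of KRT6B and 24.6% of KRT6C occurred word for word in another gene, so reads could have been placed on the wrong copy. The levels of KRT6B and KRT6C are therefore uncertain beside KRT6A, whose counts were far higher in every library.

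The type I stress keratins did not rise with KRT6A. KRT17 (ENSG00000128422), a keratin of wound edges and of many carcinomas, stood at 160.1, 163 and 159 FPKM in control libraries, 148, 144 and 129.5 with siRNA.1, and 129.8, 129 and 126 with siRNA.2. All siRNA libraries lay below all control libraries, with log2 fold changes of -0.22 (standard error 0.0401, adjusted p = 3.51e-07, edgeR) and -0.34 (0.0401, adjusted p = 1.18e-15). KRT16, the usual KRT6 partner, stood at 2.34, 2.15 and 2.55 FPKM in control libraries, 1.68, 1.76 and 2.15 with siRNA.1, and 2.65, 2.65 and 2.43 with siRNA.2. Neither change passed in log2 units, with -0.36 with siRNA.1 (95% interval -0.73 to 0.01, adjusted p = 0.153, edgeR) and 0.12 with siRNA.2 (-0.24 to 0.48, adjusted p = 0.691). The ratio of KRT6A to KRT17 in FPKM was 0.484 to 0.497 in control libraries, 0.697 to 0.768 under siRNA.1 and 0.902 to 0.943 under siRNA.2. KRT6A was below KRT5 in every control library, with a ratio of 0.525 to 0.594, and above it in every siRNA library, with 2.43 to 2.70 under siRNA.1 and 2.07 to 2.20 under siRNA.2. This order held with either gene length.

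Suprabasal keratins were scarce, with 9.0 ± 1.76 FPKM (SD, n = 3) summed over the 10 genes in control cells, 9.82 ± 0.220 with siRNA.1 and 9.64 ± 0.885 with siRNA.2. Of the 4 tested, 1 rose, 1 fell and 2 were not called with each siRNA. KRT13 (ENSG00000171401, chromosome 17, 41500981 to 41505705, minus strand), the differentiation keratin of the esophageal lining, fell from 39, 77 and 100 counts in control libraries to 14, 16 and 1 with siRNA.1 and 15, 13 and 13 with siRNA.2. That is 0.87, 1.70 and 1.92 FPKM in the control libraries, against at most 0.36 in any siRNA library. In log2 units the change was -2.84 under siRNA.1 (standard error 0.363, adjusted p = 1.42e-13, edgeR) and -2.71 under siRNA.2 (0.348, adjusted p = 1.66e-13). The spread within control cells was wide, at 1.497 ± 0.554 FPKM (SD, n = 3).

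KRT9 (ENSG00000171403, chromosome 17, 41565836 to 41572059, minus strand), a keratin of palm and sole epidermis whose promoter is printed above, rose from 1.25, 1.17 and 1.07 FPKM to 3.06, 3.65 and 3.57 with siRNA.1 and 2.93, 2.31 and 1.93 with siRNA.2. The siRNA libraries all lay above the control libraries, with log2 fold changes of 1.53 (standard error 0.204, adjusted p = 1.37e-12, edgeR) and 1.02 (0.207, adjusted p = 6.83e-06). KRT10, the type I keratin of differentiating epidermis, stood at 5.12, 5.61 and 7.65 FPKM in control libraries, 6.53, 5.71 and 5.80 with siRNA.1, and 7.08, 7.39 and 6.41 with siRNA.2. Control replicate 3 was the highest of all 9. In log2 units it changed by -0.06 (adjusted p = 0.792, edgeR) and 0.16 (adjusted p = 0.348), and without control replicate 3 they became 0.14 (adjusted p = 0.544) and 0.36 (adjusted p = 0.0384). KRT10 overlaps TMEM99 on the opposite strand, and whether counting used strand was not given in the sources used here. KRT78 had 2 to 13 counts in a library and passed in no comparison.

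Among the 26 hair and root sheath keratins, 5 were tested, of which 3 rose with siRNA.1, 2 with siRNA.2 and none fell. KRT34 (ENSG00000131737, chromosome 17, 41377669 to 41382306, minus strand), a type I keratin of the hair cortex whose promoter is printed above, went from 1.40, 2.16 and 1.13 FPKM to 8.88, 6.25 and 8.16 with siRNA.1 and 7.91, 5.28 and 5.64 with siRNA.2. The lowest siRNA library was above the highest control library. Its level was 4.93-fold higher with siRNA.1 (log2 fold change 2.30, standard error 0.176, adjusted p = 2.8e-37, edgeR) and 4.01-fold higher with siRNA.2 (2.00, standard error 0.177, adjusted p = 5.02e-28). KRT33A, a near neighbour of the same hair class, had 0 to 9 counts in a library and was not called with either siRNA (adjusted p = 0.468 and 0.655, edgeR).

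KRT81, a type II hair keratin, stood at 189, 183 and 179 FPKM in control libraries, 219, 209 and 202 with siRNA.1, and 181, 196 and 177 with siRNA.2. It rose with siRNA.1 by a log2 fold change of 0.17 (adjusted p = 0.000399, edgeR) and did not differ detectably with siRNA.2 (-0.0047, 95% interval -0.0855 to 0.076, adjusted p = 0.96). KRT86, its close relative, stayed between 1.10 and 1.64 FPKM in all 9 libraries and was not called (adjusted p = 0.86 and 0.535, edgeR). KRT81 lies inside KRT86 on the opposite strand, and 30.3% of its 100-base stretches recur elsewhere, chiefly in KRT86 and the pseudogene KRT87P, so the split of reads among them is uncertain. KRT75, a type II keratin of the hair follicle, had no counts in control libraries, 1, 4 and 6 with siRNA.1 and 13, 8 and 8 with siRNA.2. Against a floor of 3 counts in each control library, its level was at least 1.19-fold higher under siRNA.1, and under siRNA.2 at least 2.57-fold higher (adjusted p = 0.0218 and 0.00131, edgeR). The call with siRNA.1 was lost without control replicate 1 (adjusted p = 0.0587), 2 (0.0598) or 3 (0.0693), or without siRNA.1 replicate 3 (0.088). It was also lost with limma on log2(FPKM + 0.1) (adjusted p = 0.141) or log2(FPKM + 1) (0.27). A fit of only the conditions compared lost it too (adjusted p = 0.0563, edgeR).

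**Figure D3:**
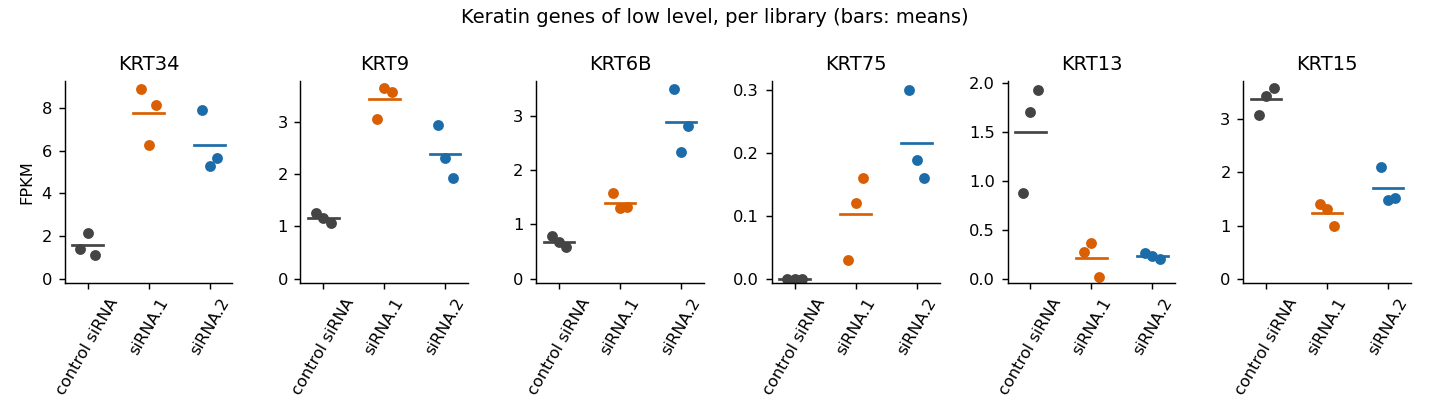
FPKM (linear axes, each with its own scale) of 6 keratin genes of low level, with a point for each library and a bar at the mean of each condition's 3 libraries. KRT34, KRT9, KRT6B and KRT75 lay higher in every siRNA library than in any control library, and KRT13 and KRT15 lower.

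In the remaining class, KRT80, a type II keratin of epidermis and other epithelia, fell from 62.3, 57.2 and 57.2 FPKM in control libraries to 50.02, 45.3 and 46.2 with siRNA.1 and 37.6, 42.7 and 41.2 with siRNA.2. The 3 groups did not overlap. Its fall came to -0.35 (standard error 0.0461, adjusted p = 1.24e-12, edgeR) and -0.55 (0.046, adjusted p = 3.99e-31) in log2 units. KRT23, a type I keratin, stood at 3.58, 3.39 and 3.03 FPKM in control libraries, 2.46, 2.59 and 2.15 with siRNA.1, and 3.65, 3.42 and 4.23 with siRNA.2. It fell with siRNA.1 (-0.50, adjusted p = 0.00463, edgeR) and did not pass with siRNA.2 (0.17, adjusted p = 0.423).

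Summed over the 55 genes, the level was 2137 ± 27.7 FPKM (SD, n = 3) in control cells, 2088 ± 83.4 with siRNA.1 and 1879 ± 38.1 with siRNA.2. Control and siRNA.1 libraries overlapped, and every siRNA.2 library lay below both. In counts, keratins took 0.772% to 0.794% of all reads in control libraries, 0.741% to 0.796% under siRNA.1 and 0.676% to 0.703% under siRNA.2. The share of the basal class in the pool dropped from 7.25% to 2.48% under siRNA.1 and 3.52% under siRNA.2. Simple keratins held 69.3%, 72.4% and 70.0% (control, siRNA.1 and siRNA.2, in that order), with KRT18 alone going from 21.1% to 28.5% and 26.7%. The pool itself was smaller with siRNA.2. The summed simple level was 1481, 1512 and 1315 FPKM, and every siRNA.2 library lay below every control library. Stress keratins held 11.4%, 11.8% and 13.4%, hair and root sheath keratins 8.77%, 10.5% and 10.2%, and suprabasal keratins 0.421%, 0.470% and 0.513%. Type II RNA exceeded type I RNA in every library, by a ratio of 1.23 to 1.27 in control libraries, 1.12 to 1.14 under siRNA.1 and 1.17 to 1.22 under siRNA.2.

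**Figure D4:**
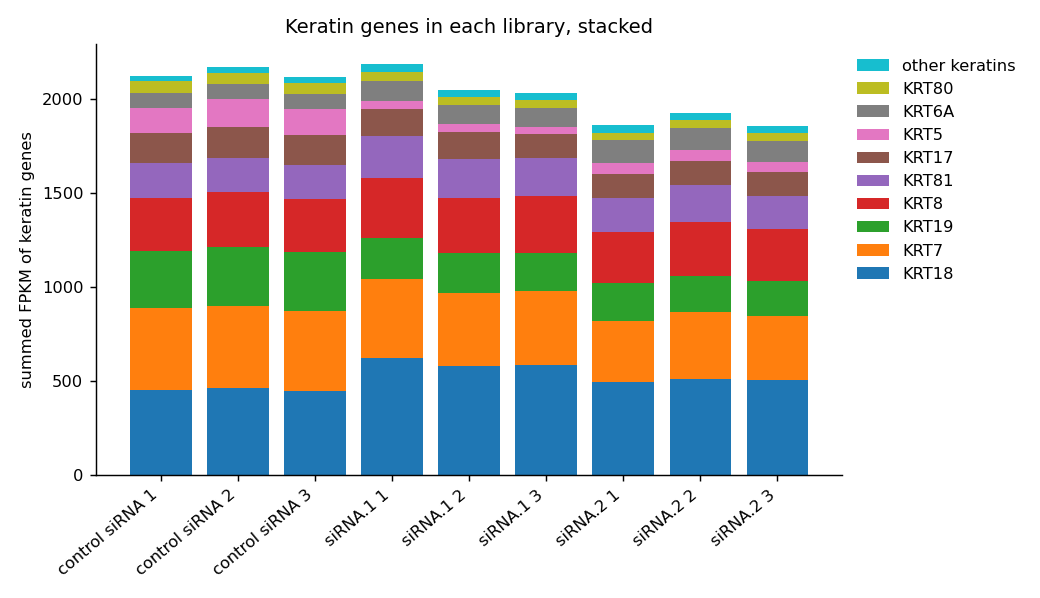
Summed FPKM of the 55 keratin genes in each of the 9 libraries, stacked by gene, with the genes outside the 9 most abundant pooled as other keratins. The KRT5 band narrowed in all 6 siRNA libraries, the KRT19 band narrowed as well, and the KRT18 band widened.

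Levels between genes depend on the length they are divided by. The deposited FPKM uses all annotated exon bases of a gene, 6881 for KRT8, whose canonical transcript in GENCODE 44 has 1784 bases. Divided by the canonical length instead (a choice made after the data were seen), KRT8 moved from place 4 to place 1 in control cells, with a level of 1099 on the same scale, ahead of KRT7 at 1069, KRT18 at 978.7 and KRT19 at 523. The ratio of KRT8 to KRT18 then came to 1.12 in control cells, 0.907 under siRNA.1 and 0.985 under siRNA.2, still lower with both siRNAs. The basal share fell as before, from 6.18% to 2.02% and 2.94%, while the stress share became 9.07%, 8.94% and 9.98%. The suprabasal share became 0.218%, 0.219% and 0.240%. The summed suprabasal level was then 10.1, 10.0 and 9.87, with control cells no longer lowest by mean. Fold changes of single genes do not depend on this choice.

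**Figure D5:**
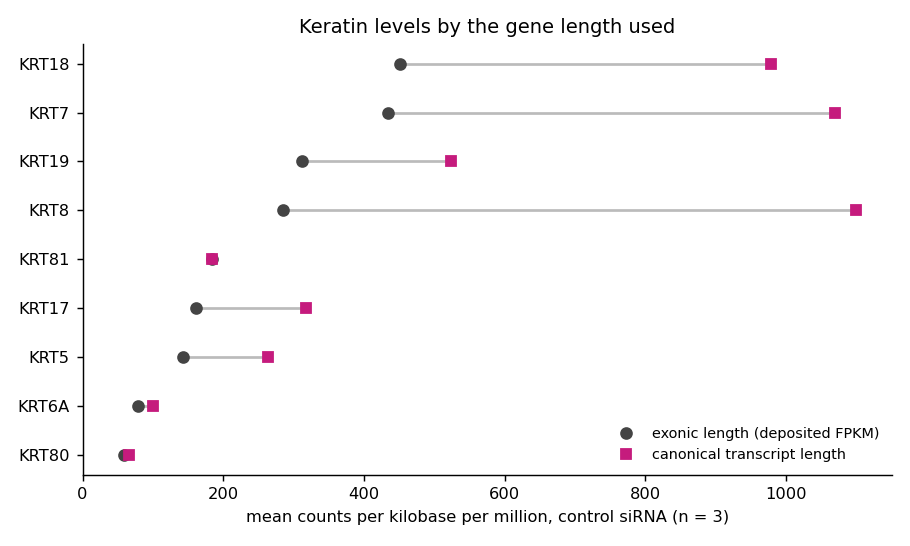
Mean level in control cells (n = 3) of the 9 most abundant keratin genes, as counts divided by length and library total, by exonic length (circles) and by canonical transcript length (squares). KRT8 moved furthest, from 284.9 to 1099, and KRT81 stayed in place.

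The siRNA conditions were also compared with each other. Of the 22 tested keratins, 5 were higher and 9 lower under siRNA.2 than under siRNA.1, where 12.2% of all tested genes were called (6.1% higher and 6.06% lower). For genes averaging 1 FPKM or more the background was 19.3% (9.79% higher and 9.54% lower), and all 14 calls fell among the 18 keratins of that level. The 4 simple keratins were all lower with siRNA.2, by -0.23 for KRT18, -0.22 for KRT7, -0.11 for KRT8 and -0.11 for KRT19 on the log2 scale. The stress genes KRT6A (0.23, adjusted p = 3.04e-06, edgeR) and KRT6B (1.05, adjusted p = 2.87e-05) were higher, as were the basal genes KRT5 (0.50, adjusted p = 1.62e-27) and KRT15 (0.47, adjusted p = 0.00804) and, in the class of other keratins, KRT23 (0.67, adjusted p = 0.000145). KRT6B was the 1 called member past a log2 difference of 1, beside 0.608% of all tested genes called at that size. KRT75 (1.11, adjusted p = 0.567, edgeR) and KRT78 (-1.24, adjusted p = 0.398) were past it too but were not called. KRT5 thus fell less with siRNA.2, and KRT6A rose more. KRT34 (-0.30, adjusted p = 0.183, edgeR) and KRT13 (0.13, adjusted p = 0.92) did not pass, although KRT34 did without siRNA.2 replicate 1 (-0.48, adjusted p = 0.0356). Among these calls, those of KRT8, KRT9, KRT14, KRT15, KRT17 and KRT19 were lost when certain single libraries were left out, as given with their values in the closing part.

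Proteins that hold keratin filaments or shape them were read from the same fit. Of 11 such partners, all tested, 1 rose and 4 fell with siRNA.1, and 1 rose and 6 fell with siRNA.2. All 11 average 1 FPKM or more, where 44.8% and 45.9% of all genes of that level were called. PPL (periplakin), which ties keratin to the cornified envelope and desmosomes, stood at 22.4 ± 0.529 FPKM (SD, n = 3) in control cells, 20.2 ± 1.03 with siRNA.1 and 10.6 ± 0.484 with siRNA.2. In log2 units it fell by 0.18 (adjusted p = 0.00202, edgeR) and 1.09 (adjusted p = 1.64e-94). PLEC (plectin), which links filaments to hemidesmosomes, fell by 0.16 and 0.23 on the log2 scale, PKP1, a desmosomal plaque protein, by 0.15 and 0.41, and FAM83H, which acts on keratin organization, by 0.22 and 0.31. The PKP1 call with siRNA.1 was lost with DESeq2 (adjusted p = 0.107), with the replicate number as a block (0.0545), without control replicate 1 (-0.04, adjusted p = 0.751, edgeR) and without siRNA.1 replicate 3 (-0.12, adjusted p = 0.182). TCHP (trichoplein), a keratin-binding protein, rose by 0.39 and 0.33. EVPL and PKP2 did not pass with siRNA.1 and fell with siRNA.2 (by 0.39 and 0.20), and for both the difference between the siRNAs itself passed (-0.39 and -0.19, adjusted p = 7.42e-10 and 0.00998, edgeR). For PKP2 that difference was lost without siRNA.1 replicate 3 (adjusted p = 0.0523) or siRNA.2 replicate 3 (adjusted p = 0.123). DSP, the desmosomal anchor of keratin filaments, did not pass with either siRNA at 60.5, 65.3 and 59.0 FPKM. With siRNA.1 it passed without control replicate 1 (0.14, adjusted p = 0.0025, edgeR), siRNA.1 replicate 1 (0.12, adjusted p = 0.00685) or siRNA.2 replicate 1 (0.08, adjusted p = 0.0363).

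Factors known to act on keratin genes moved in both directions. Of 14 reported here, all tested, 4 rose and 8 fell with siRNA.1, and 3 rose and 9 fell with siRNA.2. Over all tested genes, 30.3% and 30.9% were called. All 14 average 1 FPKM or more, FOS only through the siRNA conditions, and 44.8% and 45.9% of all genes of that level were called. SOX2, a squamous lineage factor, fell by 1.85 under siRNA.1 and 0.87 under siRNA.2 on the log2 scale, and GRHL3, a factor of epidermal differentiation, by 0.83 and 0.89. TP63, the master factor of basal stratified epithelium that acts on KRT5 and KRT14, fell by 0.15 (adjusted p = 0.013, edgeR) and 0.21 (adjusted p = 0.000191). The TP63 call with siRNA.1 was lost without control replicate 2 (adjusted p = 0.0711), siRNA.1 replicate 1 (0.0627) or siRNA.1 replicate 3 (0.0838). Among AP-1 subunits, FOSL1 rose by 0.33 and 0.65 and FOS by 1.55 and 1.37, while JUNB fell by 0.32 and 0.44. KLF4 rose by 0.43 and 0.39, and SP1 fell by 0.42 and 0.41. With siRNA.1, the rise of CEBPB and the falls of TFAP2A, JUN and NFE2L2 were also lost without certain single libraries. The falls of JUN, KLF5 and NFE2L2 with siRNA.2 were lost in the same way. CEBPB was lost as well with DESeq2 (adjusted p = 0.0534), and it passed with siRNA.2 only without siRNA.2 replicate 1 (0.15, adjusted p = 0.0403, edgeR). What these factors did at keratin genes was not measured.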

How the data were processed

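Poly(A)+ RNA from TE13 cells was sequenced on an Illumina NovaSeq. Reads were aligned by the authors to GRCh38 (STAR) and gene counts made with featureCounts. Versions, annotation release and strand setting were not given in the sources used here. The authors deposited whole-number counts per gene and library. They also deposited FPKM, which divides counts by exonic length and the library total. Groups came from the sample titles. The keratin genes and all gene and marker lists were chosen with earlier results of these data known, and 1 factor of the lists is not reported here. Genes averaging 0.1 FPKM or more (21395 of 60605) were tested on counts with edgeR 4.0.16 (TMM scaling, quasi-likelihood test, R 4.3.3) in 1 fit of the 3 conditions, with Benjamini-Hochberg adjustment over all tested genes and a threshold of 0.05. The method was tested on simulated counts, where edgeR recovered 117 of 200 changed genes (58.5%) and called 11 unchanged genes. The 200 were drawn from all tested genes at any level, and they were a far smaller share of genes than was called here. The 58.5% is thus not a figure for keratins averaging 1 FPKM or more. A gene that did not pass may still have changed. Keratins averaging 1 FPKM or more were named with all values. Alternatives used DESeq2 1.42.0, limma 3.58.1 on log2(FPKM + 0.1) and log2(FPKM + 1), other scalings and filters, the replicate block, and each library left out in turn. Sharing of 100-base stretches and canonical lengths came from GENCODE 44, promoters from RefSeq. The precision of a count is limited by depth, with floors of 3 counts in a library covering counting error only.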

Additional observations from a re-analysis of the deposited data

Results flagged for a closer look

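The direct comparison of siRNA.2 with siRNA.1 picked out 14 keratin genes in which the difference between the siRNAs passed its own test (edgeR's quasi-likelihood test, adjusted p under 0.05). Values are log2 differences, siRNA.2 minus siRNA.1. The basal gene KRT5 differed by 0.50 and KRT15 by 0.47, both having fallen less with siRNA.2, while KRT14 differed by -0.28. The stress genes KRT6B and KRT6A differed by 1.05 and 0.23, with the larger rise under siRNA.2, and KRT17 differed by -0.11. In the simple class, KRT18 differed by -0.23, KRT7 by -0.22, KRT8 by -0.11 and KRT19 by -0.11. KRT9 differed by -0.51, KRT81 by -0.17, KRT80 by -0.20 and KRT23 by 0.67. KRT23 and KRT81 were the members called with siRNA.1 and not with siRNA.2, and for both the difference itself passed (adjusted p = 0.000145 and 0.000735, edgeR).

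Several of these differences rested on single libraries. KRT8 did not pass without siRNA.1 replicate 1 (-0.06, adjusted p = 0.262, edgeR) or siRNA.2 replicate 1 (-0.08, adjusted p = 0.059). KRT15 did not pass without siRNA.1 replicate 3 (0.33, adjusted p = 0.183) or siRNA.2 replicate 1 (0.31, adjusted p = 0.233). KRT19 did not pass without siRNA.1 replicate 1 (-0.08, adjusted p = 0.212), siRNA.2 replicate 2 (-0.12, adjusted p = 0.0643) or siRNA.2 replicate 3 (-0.10, adjusted p = 0.165). KRT14 did not pass without siRNA.1 replicate 1 (-0.15, adjusted p = 0.522) or any of siRNA.2 replicates 1 (-0.24, adjusted p = 0.201), 2 (-0.31, adjusted p = 0.0719) and 3 (-0.30, adjusted p = 0.082). KRT9 did not pass without siRNA.1 replicate 2 (-0.47, adjusted p = 0.146) or 3 (-0.48, adjusted p = 0.153), or siRNA.2 replicate 2 (-0.49, adjusted p = 0.119) or 3 (-0.38, adjusted p = 0.31). KRT17, whose siRNA.1 and siRNA.2 libraries overlapped, did not pass without siRNA.1 replicate 1 (-0.07, adjusted p = 0.372) or 2 (-0.10, adjusted p = 0.0973), or any of siRNA.2 replicates 1 (-0.11, adjusted p = 0.0672), 2 (-0.12, adjusted p = 0.0672) and 3 (-0.11, adjusted p = 0.146). The calls of KRT5, KRT6A, KRT6B, KRT7, KRT18, KRT23, KRT80 and KRT81 in this comparison passed with each library left out. KRT80 did not pass with limma on log2(FPKM + 0.1) (adjusted p = 0.0578) or log2(FPKM + 1) (adjusted p = 0.0611). The differences of KRT8, KRT9, KRT14, KRT15, KRT17 and KRT19 were also lost with both limma settings. With DESeq2, KRT9 and KRT14 did not pass (adjusted p = 0.071 and 0.0709). KRT14, KRT17 and KRT19 were lost with the replicate block and, together with KRT9, with no filter on low values. Upper quartile scaling lost KRT14 alone.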

How the results depend on the processing

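Of 1239 values recomputed under the alternatives, 1168 kept their direction and side of the threshold, 51 lost the threshold, 8 gained it and 12 changed sign; the causes were not tested. The keratin calls numbered 15 with siRNA.1, 13 with siRNA.2 and 14 between the siRNAs. They ranged over 14 to 16, 13 to 14 and 10 to 14 with single libraries left out, and came to 7, 7 and 1 with a log2 fold change of at least 1 required. For the comparison of the siRNAs, limma called 8 with a pseudocount of 0.1 and 7 with 1. The 8 include KRT16 (0.45, adjusted p = 0.0491, limma), which did not pass in edgeR (0.48, adjusted p = 0.071). Every siRNA.2 library of KRT16 lay above every siRNA.1 library. The replicate block gave 15, 13 and 11 calls. No shared effect of the replicate number was seen. Deviations from the group means correlated at -0.147 to 0.0698 between same-numbered libraries over 12483 genes, and at -0.0597 to 0.135 between differently numbered ones. Such deviations cancel within a group, so these values cannot show whether the samples were paired. Of the other intermediate filament genes, 4 were called with siRNA.2, but 2 with DESeq2 or its size factors and 2 to 4 with libraries left out (2 without control replicate 1, siRNA.1 replicate 3 or siRNA.2 replicate 3); 2 differed between the siRNAs, and 1 to 2 with libraries left out. Keratin pseudogene calls with siRNA.1 went from 2 to 1 with DESeq2 and 1 to 2 with libraries left out. Summed keratin levels of 2137, 2088 and 1879 ranged over 2121 to 2147, 2040 to 2116 and 1858 to 1892 with libraries left out, and came to 4647, 4597 and 4112 by canonical length.

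Signs changed only in values that missed the threshold. KRT81 with siRNA.2 (-0.0047) became 0.0052 and 0.0051 with limma, 0.0062 with library totals, 0.0049 with no filter, and ranged from -0.0563 to 0.0214 with libraries left out, above 0 without control replicate 1 or siRNA.2 replicates 1 or 3. With libraries left out, KRT33A between the siRNAs ranged from -0.56 (without siRNA.2 replicate 3) to 1.70, KRT13 between the siRNAs from -0.42 (without siRNA.1 replicate 3) to 0.65, KRT86 with siRNA.1 from -0.18 to 0.0195 (without siRNA.1 replicate 3), and KRT10 with siRNA.1 from -0.17 to 0.14 (without control replicate 3). KRT8 with siRNA.1 passed with library totals (0.0948, adjusted p = 0.00338, edgeR).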

Other observations

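Of 15 intermediate filament genes other than keratins, 9 were tested, of which 1 rose and 4 fell with siRNA.1 and 3 rose and 1 fell with siRNA.2. Over all tested genes, 30.3% and 30.9% were called, and 44.8% and 45.9% of those averaging 1 FPKM or more. VIM (vimentin), the filament of mesenchymal cells, stood at 0.137 ± 0.0322 FPKM (SD, n = 3) in control cells, 1.64 ± 0.381 with siRNA.1 and 1.47 ± 0.0854 with siRNA.2. On the log2 scale it rose by 3.53 (adjusted p = 7.56e-44, edgeR) and 3.39 (adjusted p = 1.92e-40), at levels far below those of the simple keratins. Among the nuclear lamins, LMNA fell by 0.23 and 0.32 on the log2 scale (adjusted p = 4.61e-08 and 3.82e-15, edgeR). LMNB1 fell by 0.37 with siRNA.1 (adjusted p = 8.42e-12) and was 0.12 higher with siRNA.2 (adjusted p = 0.0426), and the siRNAs differed by 0.49. The LMNB1 call with siRNA.2 was lost with DESeq2 (adjusted p = 0.0906), with its size factors (0.0632), with the replicate block (0.0665), and without control replicate 1 (0.0809) or 3 (0.211), siRNA.1 replicate 3 (0.0509), or siRNA.2 replicate 2 (0.276) or 3 (0.0561). PRPH, the third gene called higher with siRNA.2 (1.59, adjusted p = 0.0488, edgeR), was lost with DESeq2 (adjusted p = 0.0817) and with its size factors (0.0517), and without single libraries (adjusted p up to 0.285). NES (nestin) fell by 0.47 with siRNA.1 (adjusted p = 0.000251) and did not pass with siRNA.2 (-0.14, adjusted p = 0.361). SYNM fell by 0.27 with siRNA.1 (adjusted p = 0.0422, edgeR) and did not pass with siRNA.2 (-0.20, adjusted p = 0.152). Its siRNA.1 call was lost without any single control or siRNA.1 library (adjusted p from 0.0721 to 0.106, edgeR). With single libraries left out, 4 to 5 of these genes were called with siRNA.1.

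The table held 149 keratin pseudogenes, of which 130 had at most 3 counts in any library and 9 were tested. KRT87P, which overlaps KRT7 and KRT86, fell from 3.24 FPKM in control cells to 2.17 with siRNA.1 (log2 fold change -0.61, adjusted p = 0.0211, edgeR) and 1.05 with siRNA.2 (-1.63, adjusted p = 6.45e-11). The KRT87P call with siRNA.1 was lost with DESeq2 (adjusted p = 0.0544), and without control replicate 2 (0.0628), siRNA.1 replicate 1 (0.0525) or siRNA.1 replicate 3 (0.182). KRT8P12 rose from 1.63 to 2.87 and 2.89 FPKM (0.78 and 0.80, adjusted p = 0.00085 and 0.000445, edgeR), and 1.60% of the 100-base stretches of KRT8 recur in its pseudogenes or other genes. The remaining 7 tested pseudogenes were called with neither siRNA, where 30.3% and 30.9% of all tested genes were called.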
